A study of Rattus norvegicus with 24 samples.

Results

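The expression of 44 genes of the lysosome was followed in rat brain: cathepsins and other peptidases, glycosidases, sulfatases, lipid hydrolases with their activators and carriers, membrane proteins and the transcription factor TFEB. A member was taken as the locus whose gene name, after joined names were split, equals the symbol, and 43 of the 44 symbols matched 1 locus each among 26641 named loci. Ctso is not analysed here. Messenger RNA of 12 adult male Sprague-Dawley rats was sequenced 3 months after surgery, from cortex and thalamus of each rat. In TBI rats these were cortex next to the lesion (perilesional) and the thalamus of the injured side (ipsilateral). Sham rats had no lesion, and their samples carry the same region names. The 6 TBI rats had received lateral fluid-percussion injury, a fluid pressure pulse onto the exposed dura, and had been picked from a larger cohort for a chronic inflammatory rim around the lesion on T2-weighted magnetic resonance imaging, so they stand for rats with such a rim. The 6 sham rats had the same anaesthesia and surgery without the impact. This gave 4 groups of 6 libraries, called sham cortex, TBI cortex, sham thalamus and TBI thalamus.

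Lysosomes are acidic compartments in which hydrolases take apart material delivered by phagocytosis, endocytosis and autophagy. The enzymes are made in the endoplasmic reticulum, are carried to the lysosome on sorting receptors, and work at the low pH that a proton pump, the V-ATPase, maintains. In the brain, microglia and macrophages that clear myelin and cell debris are rich in lysosomes, while neurons and oligodendrocytes depend on the same enzymes, and the inherited loss of single members causes storage diseases with neurodegeneration.

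All values below are normalized counts, the fragments of a locus divided by a size factor of the library. Their totals were 37244965 to 41732163 per library, the recovered depth was 30568927 to 54608922 fragments, and 3 fragments, the most that a count of 0 allows, correspond to 2.06 to 3.76 normalized counts, far under the lowest member value of 59.1 (Ctsk in sham thalamus). Such floors cover counting error only. Tests were made with limma on log2(normalized count + 1) over all named loci with a mean of at least 10, with p-values adjusted by Benjamini-Hochberg, a threshold of 0.05 and two-sided tests. The 43 members all passed this filter in each comparison. A difference is TBI minus sham, or thalamus minus cortex, on that log2 scale, with its SE and 6 rats per group. The summed level of 6 thalamus markers, Tcf7l2, Lef1, Slc17a6, Prkcd, Gbx2 and Calb2, was 2602 to 3339 in the cortex libraries and 62483 to 105710.0 in the thalamus libraries. That of 6 cortex markers was 53664 to 66701 against 3015 to 10293, so each library matched its labelled region. Choroid plexus RNA varied widely between the libraries of every group, sham groups included. Both libraries of TBI rat 45 held the most of it in their group. The summed level of 6 markers was 31786 in its cortex and 255895 in its thalamus, against group medians of 925 and 1493. Sham libraries reached 23218 in cortex (rat 26) and 106288 in thalamus (rat 50), against group medians of 2327.5 and 1194. None of the 6 markers passed between TBI and sham rats by limma (1 in cortex and 0 in thalamus at an unadjusted p under 0.05). With a spread this wide, that result cannot show that TBI and sham rats held like amounts. The member counts for TBI against sham are given with and without rat 45. So are the values of Asah1 in thalamus and of Psap, Ctsc and Ctsk in both regions. Fuca1 and Ctsa in thalamus and Ctsh in cortex, where rat 45 was also highest, are given with it only.

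Most lysosomal genes were higher after TBI in both regions, led by Cd68, the lipid carrier Npc2, progranulin (Grn), Laptm5 and several cathepsins. In the perilesional cortex 27 of the 43 members were higher and 1 was lower past the threshold, where 14.3% of all 15493 loci tested were higher and 14.9% lower. In thalamus 29 rose and 3 fell, against 14.5% higher and 20.9% lower of 15564 loci. The median difference of the members was 0.27 in cortex and 0.37 in thalamus, and over all loci tested it was -0.0096 and -0.023. For 20 members in cortex every TBI value lay above every sham value, which held for 7.02% of all loci, and for no member did every TBI value lie below, which held for 5.45% of all loci. In thalamus the 6 TBI values lay above all sham values for 21 members, with 7.46% of all loci as background, and below all of them for 1 member, with 10.7% as background. TMM scaling, which turned the share of lower calls among all called thalamus loci from 59.0% to 45.7%, gave 30 members higher and 3 lower. Without rat 45 the counts were 25 higher and 0 lower in cortex and 27 higher and 3 lower in thalamus. Taken by region, 25 members were higher in both, 3 passed in cortex and not in thalamus, 7 in thalamus and not in cortex, and 8 in neither. The matching joint shares over all loci are not given here, so these joint counts only describe the members. No member passed in opposite directions by limma or edgeR, and 0 did at an unadjusted p under 0.05.

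**Figure D1:**
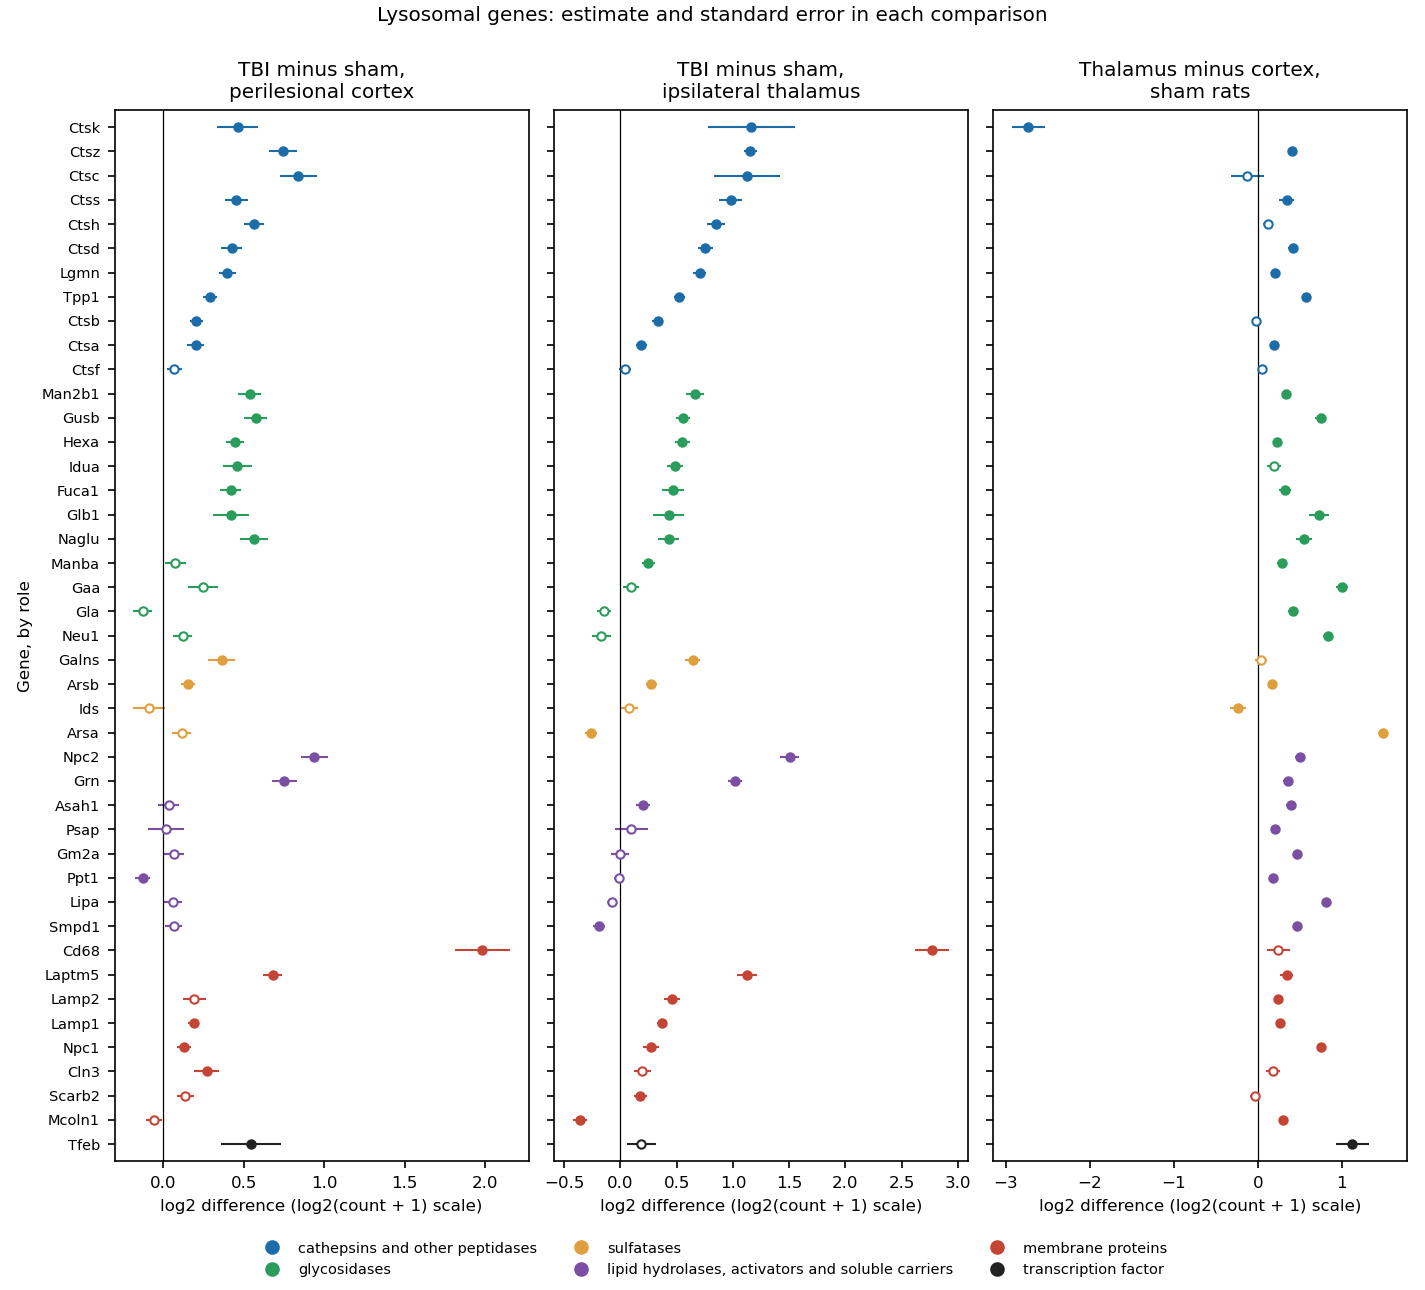
Difference of each of the 43 members on the log2(normalized count + 1) scale (horizontal axis; points, limma estimate; bars, SE; 6 rats per group) for TBI minus sham in cortex and in thalamus and for thalamus minus cortex in sham rats. Filled points passed an adjusted p of 0.05 and open points did not: 28 are filled in the first panel, 32 in the second and 34 in the third, and each panel has its own scale.

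Shares were taken of the normalized counts of all named loci of a library. Together the 43 members took 0.599% to 0.635% of these in sham cortex and 0.686% to 0.799% in TBI cortex. In thalamus the shares were 0.691% to 0.76% and 0.922% to 1.11%. The groups did not overlap in either region. In every TBI library most members lay above the sham mean of the region, from 33 to 39 of 43. The sham libraries themselves had 10 to 32 members above it. Rat 45 had the highest value of its group for 18 members in cortex and for 19 in thalamus, and its median difference from the sham mean was 0.38 and 0.44, while the other 5 TBI rats had 0.20 to 0.30 in cortex and 0.30 to 0.44 in thalamus. In sham libraries it stayed between -0.066 and 0.043. Matching counts over all loci, above the sham mean or highest in rat 45, are not given here.

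**Figure D2:**
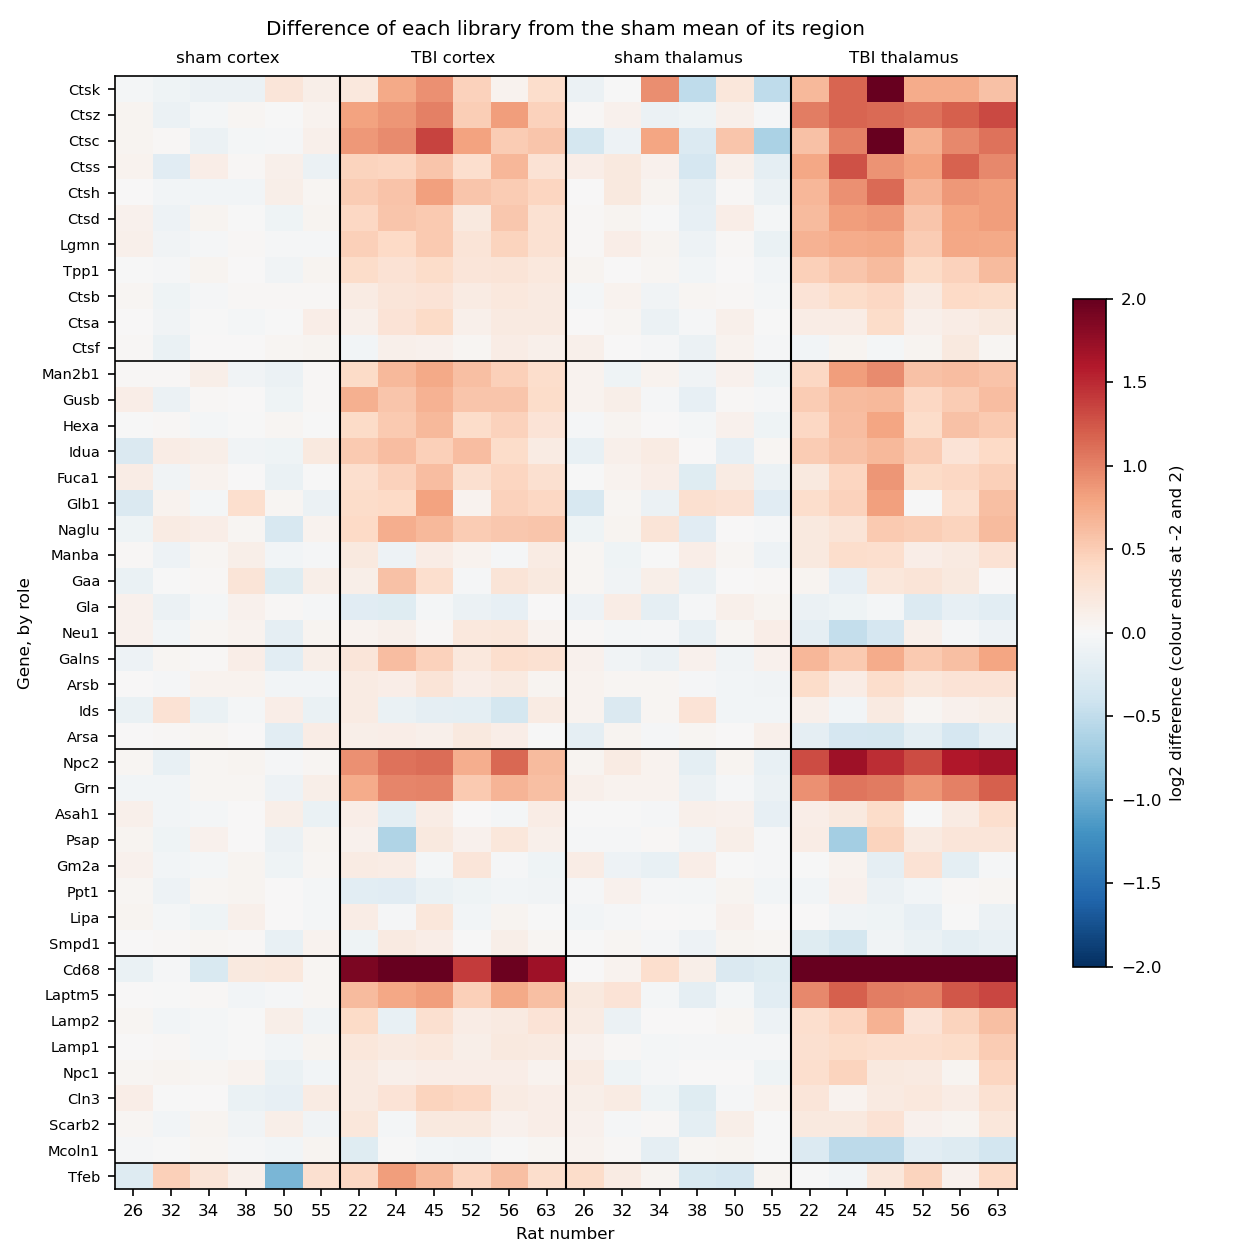
Difference of each library (columns, by group and rat number) from the mean of the 6 sham libraries of its region for each member (rows, by role), on the log2(normalized count + 1) scale; red is above and blue below, and the colour ends at -2 and 2. The TBI columns are mainly red from Ctsk to Tpp1 and for Npc2, Grn, Cd68 and Laptm5, and Psap is blue in both libraries of rat 24.

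Markers of microglia rose with the members, and markers of neurons fell. Of 13 microglia markers, 11 were higher in cortex and 13 in thalamus, with median differences of 0.61 and 0.95. Their summed level ran from 14398 to 15458 in sham cortex, 20301 to 23834 in TBI cortex, 15692 to 20629 in sham thalamus and 31664 to 41767 in TBI thalamus, and none was at 0 in any group. Neuron markers went the other way, with 9 of 12 lower in cortex and 10 of 12 in thalamus, while 5 of 8 astrocyte markers were higher in each region and 1 of 8, in cortex, was lower. Of 4 perivascular macrophage markers, 2 were higher in cortex and 0 in thalamus at the adjusted threshold of limma, and 0 in thalamus at an unadjusted p under 0.05. Smaller lists gave 3 of 3 oligodendrocyte precursor markers higher in cortex and 1 of 3 in thalamus, 3 of 7 and 1 of 7 oligodendrocyte markers, 1 of 7 and 4 of 7 endothelial markers, and 0 of 3 and 1 of 1 tested T cell markers, with none lower. Over all loci 14.3% were higher in cortex and 14.5% in thalamus, and the shares of 1 of 7 (14.3%) lie at that background. Their part in the lysosomal differences was not tested. The samples were pieces of tissue, in which a change in the number of cells of a type and a change in RNA per cell cannot be told apart.

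Among the membrane proteins, 5 of 8 were higher in cortex (62.5%, against 14.3% of all loci). In thalamus 6 were higher (75%, against 14.5%) and 1 lower (12.5%, against 20.9%). CD68 is the glycoprotein of phagocyte lysosomes that the study stained in tissue sections, and its gene lies on chromosome 10, 56014364 to 56016243 as the files give it, in the Rnor_5.0 annotation. Cd68 stood at 62.3 to 89.4 (median 77.4) in sham cortex and 204 to 437 (median 293) in TBI cortex. In thalamus the values were 74.6 to 115 (median 93.6) and 445 to 851 (median 635). The lowest TBI value lay over 2 times the highest sham value in cortex and over 3 times in thalamus. The difference was 1.98 ± 0.17 in cortex (3.95-fold, adjusted p = 3.19e-06) and 2.77 ± 0.15 in thalamus (6.82-fold, adjusted p = 2.33e-08), the largest of the 43 members in both.

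LAPTM5, a transmembrane protein of lysosomes in blood-derived cells and microglia, followed the same pattern. Laptm5 (chromosome 5, 152749579 to 152771632) had 1183 to 1256 (median 1228) in sham cortex and 1697 to 2187 (median 1995) in TBI cortex. The thalamus gave 1346 to 1876 (median 1516) in sham and 3029 to 3928 (median 3366) in TBI rats. No TBI value reached down to a sham value, and the differences were 0.68 ± 0.059 (adjusted p = 3.40e-06) and 1.13 ± 0.091 (adjusted p = 8.38e-07). LAMP1 and LAMP2 are the abundant glycoproteins that line the inner face of the lysosomal membrane. Lamp1 had 15108 to 16326 (median 15705) in sham and 17079.7 to 18369.7 (median 17901) in TBI cortex and 18429 to 20027 (median 18534) in sham and 23492 to 26669 (median 24025) in TBI thalamus, small shifts with narrow spread (0.19 ± 0.037 and 0.37 ± 0.045, adjusted p = 0.00175 and 2.86e-05). Lamp2 was separated in thalamus, with 5847 to 7068 (median 6346) in sham and 7633 to 10210.4 (median 8526) in TBI (0.46 ± 0.071, adjusted p = 0.000224). In cortex the Lamp2 value of rat 24 lay below all sham values and the other 5 above them, and the difference of 0.19 ± 0.074 missed the threshold (adjusted p = 0.0636), while without rat 24 it was 0.26 (adjusted p = 0.00234). Under upper quartile scaling of all libraries it was 0.21 and passed (adjusted p = 0.0459).

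Smaller differences were seen for the remaining membrane proteins. Npc1, the cholesterol transporter that works with NPC2, gave 0.13 ± 0.044 in cortex (adjusted p = 0.0434) and 0.27 ± 0.07 in thalamus (adjusted p = 0.0074), and the cortex call was lost without TBI rat 22, 24, 45, 52 or 56 or sham rat 26, 34, 50 or 55 (differences of 0.10 to 0.14 over all libraries left out), when all 24 libraries entered 1 fit (adjusted p = 0.106) and with no filter on low values (adjusted p = 0.0501). Cln3, mutated in juvenile Batten disease, gave 0.27 ± 0.078 (adjusted p = 0.0177) and 0.19 ± 0.074 (adjusted p = 0.0542). The thalamus value passed under TMM and upper quartile scaling (adjusted p = 0.0221 and 0.0297) and with edgeR (adjusted p = 0.0227). It passed as well with all 24 libraries in 1 fit (adjusted p = 0.0446) and with a mean of at least 50 (adjusted p = 0.0476). The same held without TBI rat 24 or sham rat 26 or 32 (differences of 0.15 to 0.23 over all libraries left out). Scarb2, the receptor that carries glucocerebrosidase to the lysosome, gave 0.13 ± 0.052 (adjusted p = 0.066) and 0.18 ± 0.059 (adjusted p = 0.0308). Its thalamus call was lost without TBI rat 22, 24, 45 or 63 or sham rat 32, 38 or 55 (differences of 0.14 to 0.20), and its cortex value passed without TBI rat 24 or sham rat 50 (differences of 0.12 to 0.17). Mcoln1 encodes TRPML1, the calcium channel of the lysosomal membrane, and was the single member whose TBI values all lay below the sham values. It stood at 2231 to 2666 (median 2585) in sham thalamus and 1759 to 2181 (median 2024) in TBI thalamus (-0.36 ± 0.065, adjusted p = 0.000678). In cortex the groups overlapped, with 1992 to 2133 (median 2046) in sham and 1751 to 2111 (median 2017) in TBI (-0.057 ± 0.05, adjusted p = 0.412).

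**Figure D3:**
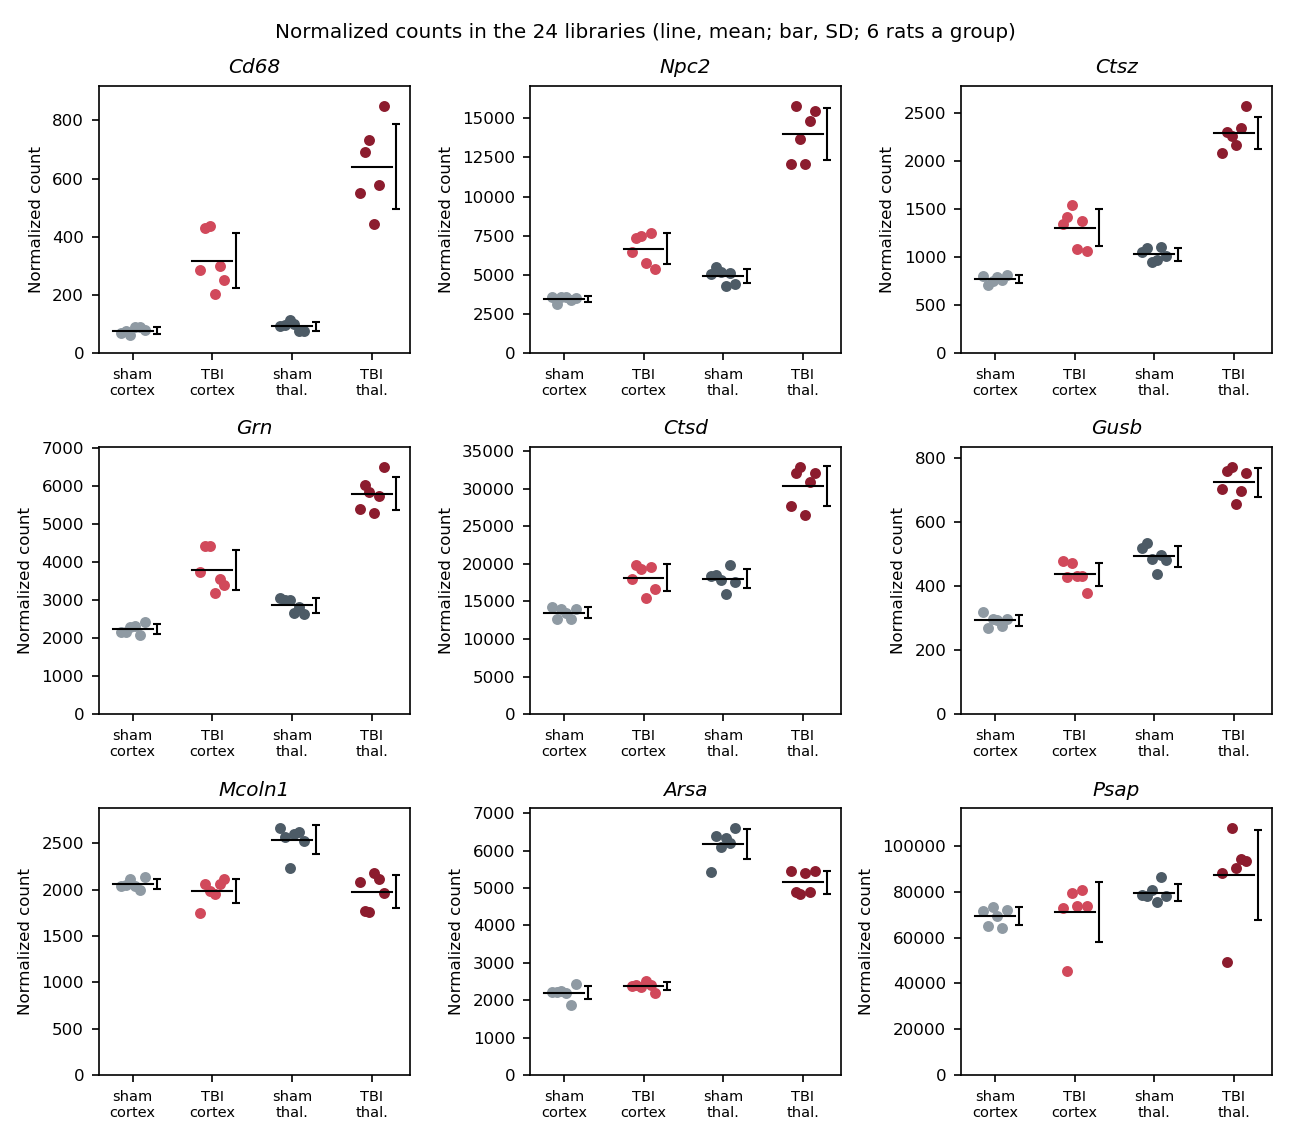
Normalized counts (vertical axis, from 0) of 9 members in the 24 libraries, 6 rats per group; horizontal lines are group means and bars the SD. Cd68, Npc2, Ctsz, Grn, Ctsd and Gusb lie higher in TBI than in sham without overlap in both regions, Mcoln1 and Arsa are lower in TBI thalamus, and 1 TBI rat, rat 24, has the lowest Psap value in both regions.

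Lipid hydrolases, activators and soluble carriers split into a pair that rose strongly and a majority near 0. In cortex 2 of 8 were higher (25%, against 14.3% of all loci) and 1 lower (12.5%, against 14.9%). In thalamus 3 were higher (37.5%, against 14.5%) and 1 lower (12.5%, against 20.9%), so the lower calls were not above the background. NPC2 binds cholesterol in the lumen and hands it to NPC1. Npc2 (chromosome 6, 117060859 to 117081781) had 3124 to 3592 (median 3543) in sham cortex and 5353 to 7666 (median 6912) in TBI cortex. In thalamus it had 4262 to 5481 (median 5098) in sham and 12055 to 15803 (median 14264) in TBI rats, so that the lowest TBI rat lay at over 2 times the highest sham rat. Its differences were 0.94 ± 0.083 (adjusted p = 4.08e-06) and 1.50 ± 0.083 (adjusted p = 2.45e-08). Progranulin is a secreted precursor whose granulin peptides act in the lysosome and whose loss causes frontotemporal dementia. Grn (chromosome 10, 90165633 to 90171736) had 2096 to 2430.2 (median 2227) in sham cortex and 3202 to 4433 (median 3661) in TBI cortex (0.75 ± 0.078, adjusted p = 1.43e-05). Its values in thalamus were 2631 to 3059.6 (median 2918) in sham and 5300.5 to 6518 (median 5799.5) in TBI rats (1.02 ± 0.059, adjusted p = 3.80e-08), without overlap.

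Acid ceramidase (Asah1) was higher in thalamus by 0.20 ± 0.065 (adjusted p = 0.0279) but not past the threshold without rat 45 (0.16, adjusted p = 0.0579), or without TBI rat 63 or sham rat 55 (differences of 0.16 to 0.24), and gave 0.033 ± 0.065 in cortex (adjusted p = 0.734). Acid sphingomyelinase (Smpd1) fell in thalamus, with 4993 to 5559 (median 5449.6) in sham and 4218 to 5123 (median 4769) in TBI rats (-0.19 ± 0.05, adjusted p = 0.00867), where 5 of the 6 TBI rats lay below all sham rats. Its cortex values were 3529 to 4107 (median 3949) in sham and 3695 to 4407 (median 4126) in TBI (0.063 ± 0.053, adjusted p = 0.398). Palmitoyl-protein thioesterase (Ppt1), which removes fatty acids from proteins, was lower in cortex by a small margin (-0.13 ± 0.045, adjusted p = 0.0417), and this call did not hold under TMM scaling (adjusted p = 0.0519) or without TBI rat 22, 24, 45 or 52 or sham rat 26, 34, 38 or 50 (differences of -0.15 to -0.11). In thalamus Ppt1 gave -0.012 ± 0.046 (adjusted p = 0.866), a value that changed sign under TMM scaling.

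Prosaposin (Psap), the precursor of the saposins that present lipids to hydrolases, did not pass in either region. Its spread was wide in both TBI groups, with rat 24 lowest in each. TBI rat 24 had 45482 in cortex and 49562 in thalamus, while the other 22 libraries lay between 64107 and 108046. Sham cortex held 64107 to 73585 (median 70455) and TBI cortex 45482 to 81004 (median 73917) (0.014 ± 0.11, adjusted p = 0.938). Sham thalamus held 75672 to 86484 (median 78374) and TBI thalamus 49562 to 108046 (median 92020.1) (0.10 ± 0.14, adjusted p = 0.644). Without rat 24 the differences were 0.14 in cortex (adjusted p = 0.0587) and 0.25 in thalamus (adjusted p = 0.0127). Without rat 45, which had the highest thalamus value, they were -0.022 (adjusted p = 0.91) and 0.027 (adjusted p = 0.905). Rat 24 had the lowest value of its group for 7 members in TBI cortex, among them Psap and Lamp2, and for 9 in TBI thalamus. It was not the lowest for Grn, Npc2 or Cd68. The GM2 activator (Gm2a) had 2954 to 3314 (median 3121) in sham and 2927 to 3702 (median 3252) in TBI cortex, and 3907 to 4802 (median 4269.6) in sham and 3791 to 5315 (median 4279) in TBI thalamus, where the sign of its difference changed under TMM scaling. Lysosomal acid lipase (Lipa) had 2194 to 2504 (median 2315) in sham and 2239.8 to 2736 (median 2369) in TBI cortex, and 3924 to 4356 (median 4083) in sham and 3675 to 4121 (median 3872) in TBI thalamus. Both overlapped between TBI and sham rats in each region (adjusted p of 0.455 and 0.965 for Gm2a and of 0.452 and 0.183 for Lipa).

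Cathepsins and other peptidases moved together: 10 of the 11 measured (90.9%) were higher in cortex and the same number in thalamus, and none was lower. Over all loci 14.3% were higher and 14.9% lower in cortex, and 14.5% and 20.9% in thalamus. The median difference of these peptidases was 0.42 in cortex and 0.75 in thalamus. Cathepsin Z (Ctsz, chromosome 3, 178574618 to 178585389), a carboxypeptidase, had 713 to 809.7 (median 781) in sham cortex and 1064 to 1549 (median 1364) in TBI cortex (0.75 ± 0.087, adjusted p = 3.64e-05). In thalamus it had 946 to 1105 (median 1031) in sham and 2091 to 2580.0 (median 2285) in TBI rats (1.15 ± 0.059, adjusted p = 1.74e-08). Cathepsin H (Ctsh), an aminopeptidase, had 2298 to 2605 (median 2369.9) and 3223 to 4245 (median 3468) in sham and TBI cortex (0.56 ± 0.061, adjusted p = 2.12e-05). Its thalamus values were 2315 to 2988 (median 2639.7) in sham and 4127 to 5720.4 (median 4723) in TBI rats (0.85 ± 0.08, adjusted p = 3.50e-06). For both genes the TBI and sham values were apart in each region.

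Cathepsin S (Ctss, chromosome 2, 217140562 to 217169060) trims the invariant chain of MHC class II and is made by microglia and macrophages. It had 6647 to 8526 (median 8009) in sham cortex and 9422 to 12291 (median 10519.9) in TBI cortex (0.45 ± 0.073, adjusted p = 0.00046). In thalamus it had 7832 to 11221 (median 10480.4) and 16838 to 23758 (median 18791) (0.98 ± 0.10, adjusted p = 9.60e-06), the lowest TBI value being 16838 and the highest sham value 11221. Cathepsin C (Ctsc), which activates serine proteases of granules, had 266 to 309.6 (median 287) in sham cortex and 408 to 732 (median 514) in TBI cortex (0.84 ± 0.12, adjusted p = 0.000142). Its thalamus groups overlapped, with 170.2 to 454 (median 232) in sham and 395 to 1381 (median 521) in TBI rats. The thalamus difference of 1.12 ± 0.30 (adjusted p = 0.00885) was 0.87 without rat 45 (adjusted p = 0.0079). The cortex difference of Ctsc was 0.74 without rat 45 (adjusted p = 7.57e-05). Cathepsin K (Ctsk), the collagenase known from osteoclasts, was highest in the same rat. Ctsk had 59.1 to 162 (median 81.1) in sham and 127 to 733 (median 142) in TBI thalamus, the highest being rat 45, and its difference of 1.16 ± 0.39 (adjusted p = 0.03) was 0.78 without it (adjusted p = 0.0169). The call was lost without TBI rat 24 or sham rat 26, 38 or 55 (differences of 0.78 to 1.35 over all libraries left out). In the thalamus library of rat 45 the perivascular macrophage markers Cd163, Mrc1, Lyve1 and F13a1 summed to 2581, against a median of 1065, and their part was not tested. In cortex Ctsk gave 0.46 ± 0.13 (adjusted p = 0.0129), which did not pass when all 24 libraries entered 1 fit (adjusted p = 0.274). Without rat 45 this cortex difference was 0.37 (adjusted p = 0.0248).

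Cathepsin D, the main aspartic protease of the lysosome, and legumain (Lgmn), the asparaginyl endopeptidase that processes cathepsins, were higher in both regions without overlap. Ctsd gave 0.42 ± 0.063 in cortex and 0.75 ± 0.066 in thalamus (adjusted p = 0.000247 and 1.92e-06), and Lgmn gave 0.40 ± 0.051 and 0.71 ± 0.058 (adjusted p = 7.90e-05 and 9.68e-07). Tripeptidyl peptidase 1 (Tpp1), lost in late infantile Batten disease, gave 0.29 ± 0.042 and 0.52 ± 0.048 (adjusted p = 0.000217 and 2.73e-06). Cathepsin B (Ctsb) and cathepsin A (Ctsa), the protein that protects the galactosidase and sialidase complex, changed least among those that passed, by 0.20 ± 0.039 and 0.20 ± 0.053 in cortex and 0.33 ± 0.051 and 0.19 ± 0.051 in thalamus. Cathepsin F (Ctsf) did not pass, with 3423 to 3893 (median 3812) in sham cortex, 3609 to 4184 (median 4002) in TBI cortex, 3577 to 4191 (median 3874) in sham thalamus and 3761 to 4469 (median 4009.9) in TBI thalamus (adjusted p = 0.296 and 0.566).

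Glycosidases remove sugars from glycoproteins, glycolipids and glycosaminoglycans. Of the 11, 7 were higher in cortex (63.6%, against 14.3% of all loci) and 8 in thalamus (72.7%, against 14.5%). The median difference of the 11 was 0.42 and 0.43. Beta-glucuronidase (Gusb, chromosome 12, 32136117 to 32164707) had 270.1 to 319 (median 296) in sham cortex and 377 to 479 (median 430.2) in TBI cortex (0.57 ± 0.073, adjusted p = 7.26e-05). In thalamus it had 438 to 533 (median 491) and 656 to 772 (median 728) (0.56 ± 0.065, adjusted p = 2.18e-05). Alpha-mannosidase (Man2b1) had 1189 to 1395 (median 1303) in sham cortex and 1644 to 2184 (median 1866) in TBI cortex (0.54 ± 0.07, adjusted p = 8.66e-05). Its thalamus values were 1536 to 1735 (median 1626) in sham and 2175 to 3147 (median 2464) in TBI rats (0.66 ± 0.08, adjusted p = 2.87e-05). Gusb and Man2b1 did not overlap between TBI and sham rats in either region.

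The alpha subunit of hexosaminidase (Hexa), lost in Tay-Sachs disease, had 2256 to 2544 (median 2365) in sham and 3081 to 4144 (median 3497) in TBI thalamus, again without overlap (0.55 ± 0.066, adjusted p = 2.79e-05), and gave 0.44 ± 0.057 in cortex (adjusted p = 7.62e-05). Naglu, an enzyme of heparan sulfate breakdown, shares its locus with Hsd17b1, so reads of both are counted together. The locus had 283 to 396 (median 365) in sham cortex and 468 to 586 (median 516) in TBI cortex (0.56 ± 0.086, adjusted p = 0.000297), and gave 0.43 ± 0.091 in thalamus (adjusted p = 0.00228). Alpha-fucosidase (Fuca1), alpha-iduronidase (Idua) and beta-galactosidase (Glb1) were also higher in both regions, by 0.42 ± 0.063, 0.46 ± 0.091 and 0.42 ± 0.11 in cortex and by 0.46 ± 0.10, 0.49 ± 0.072 and 0.43 ± 0.14 in thalamus. The thalamus call of Glb1 was lost without TBI rat 63 or sham rat 26 or 55 (differences of 0.35 to 0.51). Beta-mannosidase (Manba) passed in thalamus (0.25 ± 0.058, adjusted p = 0.00443) and gave 0.074 ± 0.063 in cortex (adjusted p = 0.403).

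Of the glycosidases, 3 passed in neither region. The alpha-glucosidase of Pompe disease (Gaa) had 5619 to 7927 (median 6644) in sham and 6534 to 9984 (median 7788) in TBI cortex (0.25 ± 0.10, adjusted p = 0.0661). This value passed under TMM and upper quartile scaling (adjusted p = 0.049 and 0.0487), with edgeR (adjusted p = 0.0487) and with all 24 libraries in 1 fit (adjusted p = 0.0422). It also passed without TBI rat 52 or sham rat 38 (differences of 0.18 to 0.30). In thalamus Gaa had 12203 to 14428 (median 13434) and 11777 to 15865 (median 14480.0) (0.095 ± 0.072, adjusted p = 0.331). Alpha-galactosidase (Gla), lost in Fabry disease, had 1208 to 1395 (median 1316) in sham and 1115 to 1321 (median 1197) in TBI cortex (-0.13 ± 0.057, adjusted p = 0.1). Its thalamus values were 1554 to 1958 (median 1782) and 1463 to 1711 (median 1597) (-0.15 ± 0.062, adjusted p = 0.0791). That thalamus difference passed with all 24 libraries in 1 fit (adjusted p = 0.048). Sialidase (Neu1) had 822 to 984 (median 959.8) and 949.7 to 1088 (median 990.1) in cortex (0.12 ± 0.059, adjusted p = 0.142) and 1505 to 1829 (median 1672) and 1193 to 1783 (median 1511) in thalamus (-0.17 ± 0.086, adjusted p = 0.14). Single libraries moved these values past the threshold as well: Gla passed in cortex without TBI rat 63 (-0.16) and in thalamus without sham rat 34 (-0.18), and Neu1 in thalamus without TBI rat 52 (-0.23). For each of the 3, TBI and sham values overlapped in both regions.

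The 4 sulfatases, which take sulfate off glycosaminoglycans and sulfatides, went different ways. Galns (chromosome 19, 66098053 to 66131734), an enzyme of keratan sulfate breakdown, had, without overlap, 313 to 395 (median 368) in sham and 416 to 556 (median 449.6) in TBI cortex (0.36 ± 0.084, adjusted p = 0.0052) and 341 to 394 (median 372) in sham and 531 to 638 (median 576) in TBI thalamus (0.64 ± 0.07, adjusted p = 1.35e-05). Arylsulfatase B (Arsb) had 7479 to 8209 (median 7855) in sham and 8628 to 10093 (median 9450.3) in TBI thalamus, also without overlap (0.27 ± 0.047, adjusted p = 0.000462), and gave 0.15 ± 0.043 in cortex (adjusted p = 0.0153). Arylsulfatase A (Arsa, chromosome 7, 130131306 to 130137458) hydrolyses sulfatide, a myelin lipid, and is lost in metachromatic leukodystrophy. Arsa fell in thalamus, where it had 5439 to 6611 (median 6271) in sham and 4833 to 5466 (median 5141) in TBI rats, with 4 of 6 TBI rats below all sham rats (-0.26 ± 0.055, adjusted p = 0.0021). In cortex it had 1886 to 2432 (median 2213) in sham and 2186 to 2507 (median 2395) in TBI rats (0.11 ± 0.057, adjusted p = 0.155). Iduronate sulfatase (Ids) passed in neither region, with 13426 to 18133 (median 13958) and 11514 to 16583 (median 13255) in sham and TBI cortex and 10262 to 15135 (median 12479) and 12058 to 14223 (median 13358) in sham and TBI thalamus (adjusted p = 0.517 and 0.456). The files place Ids on chromosome 8 and RefSeq on X, so its locus is uncertain.

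TFEB is the basic helix-loop-helix factor that binds promoters of lysosomal genes at the CLEAR element when it is released from the lysosome surface into the nucleus, a step that its messenger RNA does not show. Tfeb (chromosome 9, 14132590 to 14188342) had 141 to 370.5 (median 301) in sham cortex and 339 to 475 (median 379.9) in TBI cortex, where 3 of 6 TBI rats lay above all sham rats. The difference of 0.55 ± 0.19 (adjusted p = 0.0395) missed the threshold without the filter on low values and without TBI rat 22, 24, 45, 52 or 56 or sham rat 26 or 38, with differences of 0.36 to 0.64 over all libraries left out. In thalamus Tfeb had 459 to 747 (median 601) in sham and 560.0 to 793 (median 648) in TBI rats (0.19 ± 0.13, adjusted p = 0.273), and the groups overlapped.

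Promoters of 37 of the 44 members are in RefSeq tables of build GRCr8, as 300 bases from 250 before the start to 50 after it. They were searched for the 8 letters TCACGTGA of the CLEAR core and for the 6-letter E-box CACGTG that lies inside it, each of which reads the same on both strands. The CLEAR core was in 4 of the 37 (10.8%) against 0.867% of 27457 promoters, and the E-box in 8 (21.6%) against 6.65%. The 37 include Ctso, which held neither motif and, without an expression value, is left out of the splits by call below. The matches with the core are shown because the members that hold it did not all move alike, with the core in capitals, 5′ to 3′ on the strand of the gene:
Ctsd, chr1:206968814-206968843, - strand: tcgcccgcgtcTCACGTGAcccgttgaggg
Lamp1, chr16:83075111-83075140, - strand: agaccctcggcTCACGTGAccggcgggcgc
Lamp1, chr16:83075084-83075113, - strand: cgcggcactgtTCACGTGAcaggcgctgcc
Mcoln1, chr12:6358250-6358279, + strand: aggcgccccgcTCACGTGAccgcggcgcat
Cln3, chr1:190597950-190597979, - strand: cacgggtactgTCACGTGAtccccaacctg
The core of Ctsd, Lamp1 and Cln3 begins 11 to 66 bases before the start, and that of Mcoln1 begins 3 bases after it. Ctsd and Lamp1 were higher in both regions, Cln3 passed in cortex, and Mcoln1 was lower in thalamus. Of the members that passed in thalamus and have a promoter, 3 of 27 held the core, and of those that did not pass, 1 of 9. In cortex these numbers were 3 of 24 and 1 of 12. A match of these letters describes the sequence and not binding.

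The TBI effect was larger in thalamus than in cortex for several peptidases and membrane proteins. Tested as an interaction of injury and region over 24 libraries, it was higher in thalamus for 9 members and lower for 3, where 2.72% of 15678 loci were higher and 4.54% lower. The 3 largest differences upward were those of Cd68 (0.79 ± 0.24, adjusted p = 0.0464), Npc2 (0.57 ± 0.12, adjusted p = 0.00599) and Ctss (0.53 ± 0.13, adjusted p = 0.0162). The Cd68 value lay close to the threshold and missed it with edgeR on recovered fragments (adjusted p = 0.0503), and it was lost in 18 of the 24 fits that left out 1 library, with differences of 0.67 to 0.89. Laptm5, Ctsz, Ctsd, Lgmn, Tpp1 and Lamp1 followed with 0.45 ± 0.11, 0.41 ± 0.11, 0.33 ± 0.093, 0.31 ± 0.076, 0.24 ± 0.06 and 0.18 ± 0.051. The 3 downward differences were Arsa at -0.37 ± 0.078 (adjusted p = 0.00441), Mcoln1 at -0.30 ± 0.08 (adjusted p = 0.0208) and Smpd1 at -0.25 ± 0.071 (adjusted p = 0.0292). Calls near the threshold were also lost when 1 library was left out for Ctsd (TBI cortex 52, TBI thalamus 24, 45 and 63, sham cortex 26 and 34, sham thalamus 38 and 55; differences of 0.28 to 0.37), Lamp1 (TBI cortex 52, sham thalamus 55; 0.16 to 0.20) and Smpd1 (TBI cortex 24 and 56, TBI thalamus 24, sham cortex 50, sham thalamus 50 and 55; -0.28 to -0.22). Among the 31 members that did not pass, the difference ran from -0.36 for Tfeb to 0.70 for Ctsk, which was 0.31 without the thalamus library of rat 45 (adjusted p = 0.523). No glycosidase passed by limma (2 of 11, Neu1 and Manba, had an unadjusted p under 0.05), with differences from -0.29 for Neu1 to 0.17 for Manba. Neu1 passed in limma without the thalamus library of TBI rat 52 (-0.35, adjusted p = 0.0304). Over all called loci the share that was lower moved from 62.5% to 53.0% with upper quartile scaling and 48.1% with edgeR, and the members split 9 higher and 3 lower with upper quartile scaling and 8 higher and 2 lower with edgeR. Of the microglia markers, 6 of 13 had a larger TBI effect in thalamus and 0 a smaller one at the adjusted threshold of limma, and their part in these differences was not tested.

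**Figure D4:**
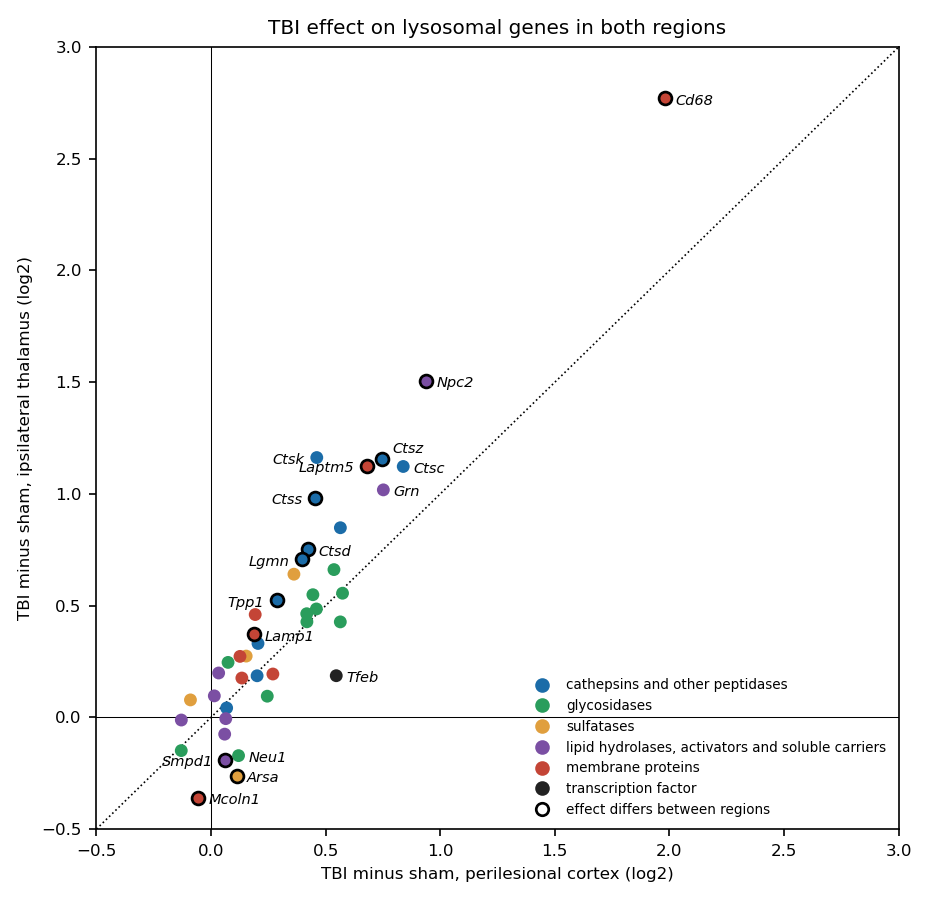
TBI minus sham in perilesional cortex (horizontal axis) and ipsilateral thalamus (vertical axis) for the 43 members, both on the log2(normalized count + 1) scale, coloured by role; the dotted line marks equal effects and black rings mark the 12 members whose effect differed between regions at an adjusted p of 0.05. Cd68 stands apart at 1.98 and 2.77, and Arsa, Smpd1 and Mcoln1 lie below the line.

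Without injury most members were already higher in thalamus. In sham rats 32 of 43 were higher and 2 lower in thalamus than in cortex, against 33.9% higher and 28.3% lower of 15582 loci. All 6 thalamus values lay above all cortex values for 28 members, with 23.9% of loci as background, and below them for 1, with 19.2% as background. Their median difference was 0.33 and that of all loci 0.031. Every lipid hydrolase, activator or carrier (8 of 8) and 10 of 11 glycosidases were higher. The 5 largest differences upward were those of Arsa at 1.49 ± 0.06, Tfeb at 1.13 ± 0.20, Gaa at 1.00 ± 0.071, Neu1 at 0.84 ± 0.059 and Lipa at 0.81 ± 0.043 (adjusted p from 6.50e-12 to 0.000141). Ctsk was the exception, at 526 to 671 (median 545) in sham cortex and 59.1 to 162 (median 81.1) in sham thalamus (-2.73 ± 0.19, adjusted p = 5.54e-09). Ids gave -0.24 ± 0.091 (adjusted p = 0.0326), a call that was lost with the rat as a block (adjusted p = 0.0635) and without sham cortex 32 or 50 or sham thalamus 32, 50 or 55 (differences of -0.29 to -0.18). Ctsb, Ctsc, Ctsf, Ctsh, Idua, Galns, Cd68, Cln3 and Scarb2 did not pass, with differences from -0.13 to 0.24, of which Idua and Cln3 passed with the rat as a block (adjusted p = 0.00973 and 0.0309). The 7 measured oligodendrocyte markers were all higher in sham thalamus, by 1.23 to 1.66, as were 8 of 13 microglia markers, and their part in the regional differences was not tested. With these levels the lowered Arsa values of TBI thalamus still lay above every cortex value.

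Further lists of lysosomal genes set these results in the pathway. Of 28 other lysosomal enzymes and membrane proteins tested, 11 were higher and 1 lower in cortex (39.3% and 3.57%, against 14.3% and 14.9% of all loci) and 16 higher and 1 lower in thalamus (57.1% and 3.57%, against 14.5% and 20.9%). Lysozyme (Lyz2) at 0.78 ± 0.17, the tetraspanin Cd63 at 0.67 ± 0.073 and cathepsin E (Ctse) at 0.58 ± 0.16 led in cortex. Tartrate-resistant acid phosphatase (Acp5) at 1.85 ± 0.18, Lyz2 at 1.72 ± 0.17 and Ctse at 1.42 ± 0.15 led in thalamus. The proton pump had lower calls in place of higher ones. Of 18 V-ATPase subunits and accessory proteins tested, 0 were higher in either region by limma (0 also at an unadjusted p under 0.05), while 8 were lower in cortex (44.4%, against 14.9% of all loci) and 13 in thalamus (72.2%, against 20.9%), with median differences of -0.13 and -0.20. Atp6v1h at -0.30 ± 0.067, Atp6ap2 at -0.29 ± 0.068 and Atp6v1a at -0.28 ± 0.059 fell most in cortex, and Atp6v0d1 at -0.36 ± 0.055, Atp6v1e1 at -0.32 ± 0.063 and Atp6v1h at -0.26 ± 0.058 in thalamus. These list counts and those that follow use the deposited scaling. Under TMM scaling the share of lower calls among all called thalamus loci moved from 59.0% to 45.7%. List counts under TMM scaling are not given here. Neurons use the same pump to load synaptic vesicles. Of the 12 neuron markers, 9 were lower in cortex and 10 in thalamus in the same samples. Their part was not tested.

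The counts of the lists that follow stand against shares over all loci of 14.3% higher and 14.9% lower in cortex and 14.5% higher and 20.9% lower in thalamus. Of 10 genes that deliver enzymes to the lysosome, 0 were higher and 1 lower in cortex, Sort1 at -0.26 ± 0.039, and 2 were higher and 2 lower in thalamus, Sumf1 at 0.31 ± 0.076, M6pr at 0.11 ± 0.041, Gga3 at -0.24 ± 0.048 and Sort1 at -0.18 ± 0.062. The delivery counts in thalamus are close to those shares. Of 13 other TFE factors and genes of mTORC1 on the lysosome (7.69% higher and 15.4% lower in cortex, 0% and 30.8% in thalamus), 1 was higher and 2 lower in cortex, with Rragd at -0.20 ± 0.057, Rraga at -0.19 ± 0.057 and Lamtor4 at 0.17 ± 0.06, and 0 were higher and 4 lower in thalamus, led by Mtor at -0.22 ± 0.065, Rptor at -0.21 ± 0.051 and Rraga at -0.18 ± 0.053. Of 13 autophagy genes (7.69% higher and 23.1% lower in cortex, 15.4% and 53.8% in thalamus), 1 was higher and 3 lower in cortex, led by Wipi1 at 0.22 ± 0.046, Gabarapl1 at -0.20 ± 0.058 and Becn1 at -0.18 ± 0.05, and 2 were higher and 7 lower in thalamus, led by Atg9a at -0.35 ± 0.053, Wipi1 at 0.26 ± 0.073 and Ulk1 at -0.23 ± 0.059. The cystatins inhibit cathepsins. Cst6 at 0.46 ± 0.11 and Cst3 at 0.31 ± 0.07 were higher in cortex, and Cst3 at 0.57 ± 0.10 and Cstb at 0.16 ± 0.055 in thalamus, 2 of 3 tested in each. Atp6v0d2, Tfec and Cst7 were under the filter of a mean of 10 in both fits.

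**Figure D5:**
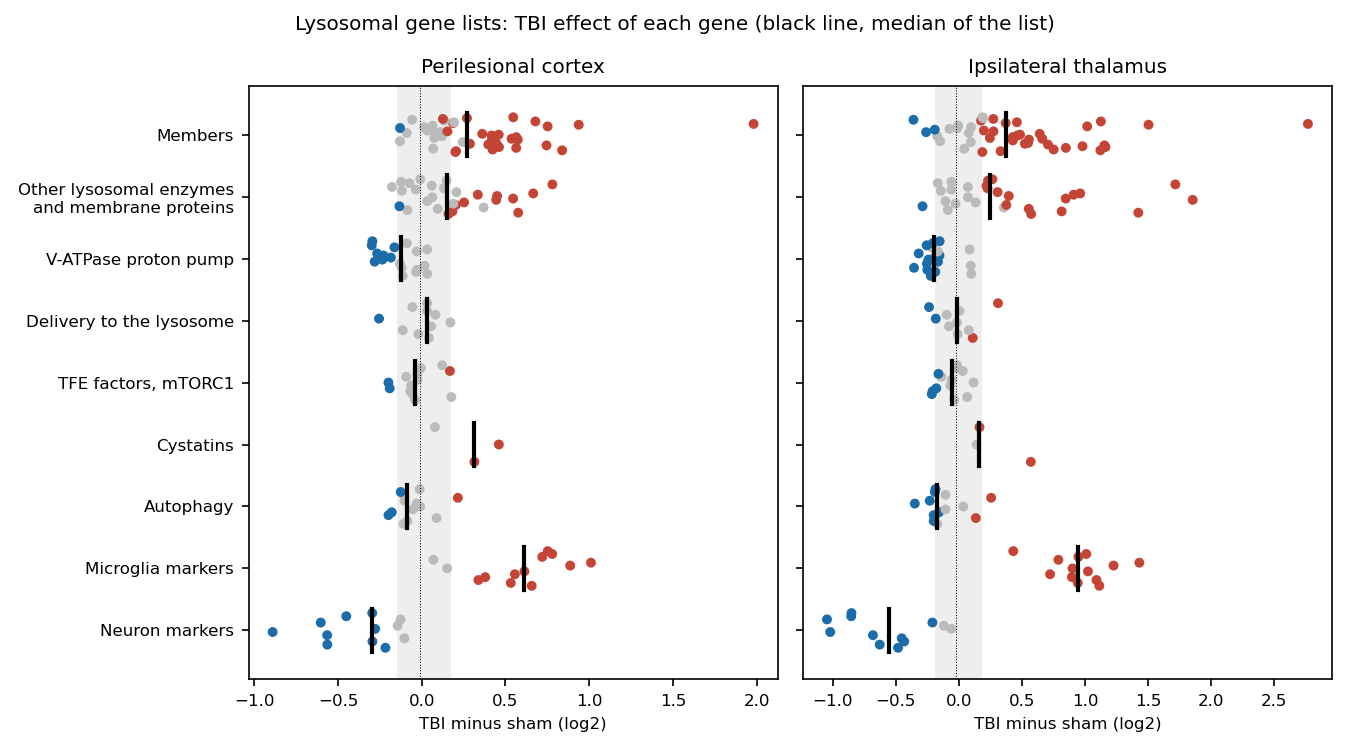
TBI minus sham (horizontal axis, log2(normalized count + 1) scale) of each tested gene of 9 lists in cortex and thalamus; red points were higher and blue points lower at an adjusted p of 0.05, grey points did not pass, black bars are list medians, and the dotted line and grey band are the median and the middle of all loci tested, from the first to the third quartile. Members and microglia markers lie to the right, V-ATPase and neuron markers to the left.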

How the data were processed

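Messenger RNA-seq libraries of 24 tissue samples, from 6 TBI and 6 sham rats with cortex and thalamus each, were used. The authors aligned reads with TopHat2 2.0.11 and Bowtie2 2.2.2 and made the deposited values, a normalized signal per locus, with Cufflinks 2.2.1, on Rnor_5.0 according to the submitters' processing notes. The methods of the study name RGSC3.4 as the genome and Rnor_5.0 as the Ensembl annotation, so the sources conflict on the build, and coordinates are printed as the files give them. The deposited signal of each locus is the fragment count divided by a library size factor: 99.97% to 99.99% of values were whole fragments within 0.1 after the library's step was recovered. Loci without a gene name (37.1%) were left out, and 0 value columns lacked a sample. For 6 members, Ctsa, Idua, Ids, Lipa, Psap and Npc1, the files give the same position to other loci as well. The study tested with Cuffdiff, which needs aligned reads, so limma 3.58.1 in R 4.3.3 was used in its place on log2(normalized count + 1), with a mean of at least 10, Benjamini-Hochberg adjustment and a threshold of 0.05. TBI was compared with sham in each region from that region's 12 libraries, and the difference of the TBI effect from all 24. Sham thalamus and sham cortex were also compared.

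The cortex and thalamus libraries of a rat come from the same animal, so the numbers pair them. Their deviations from the group means correlated with a median r of 0.187 (0.00393 to 0.569, over 0.1 in 10 of 12 rats), against -0.0332 for different rats. Alternatives were TMM and upper quartile scaling, pseudocounts of 0.1 and 5, a mean of at least 50 or no filter, a threshold of 0.01, 1 fit of all 24 libraries, the rat as a block, and leaving out each library. The edgeR 4.0.16 quasi-likelihood test on recovered fragments was chosen after seeing the data. The fits were tested on simulated data. Members and lists were chosen with earlier results of these data known.

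Values by library are given for Cd68, Tfeb, up to 3 members with the largest non-overlapping change in each role and region, members past the threshold in neither region and, upward and downward, the 3 members whose TBI effect differed most between regions. Of each pathway list the 3 largest changes are given. M6pr, Lamp2 and Smpd1 in cortex, Ctsc and Ctsk in thalamus, and Arsa in cortex were added after their values were seen.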

Additional observations from a re-analysis of the deposited data

Results flagged for a closer look

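In 172 groups of 6 libraries, the gap of the highest or lowest value to its neighbour, as a share of the group's range, exceeded Dixon's 95% critical value for 6 samples in 13. Chance gives about 1 in 20 groups, or 8.6 here. Rat 45 gave 5 of the 13: the highest value in TBI thalamus for Ctsk (gap share 0.895), Ctsc (0.830), Ctsa (0.663) and Fuca1 (0.647), and in TBI cortex for Ctsh (0.678). Rat 24 was lowest for Psap in TBI cortex (0.779) and TBI thalamus (0.662). In TBI thalamus rat 52 was lowest for Lgmn (0.695) and rat 63 highest for Lamp1 (0.718). Among sham libraries, rat 55 was highest for Ctsa (0.692), and rats 32 and 50 were lowest for Ctsf (0.735) and Smpd1 (0.665) in cortex, while rat 34 was lowest for Mcoln1 in thalamus (0.672).

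The TBI effect differed between regions for 12 members in the interaction test of limma, given as thalamus minus cortex on the log2 scale. It was larger in thalamus for Cd68 (0.788), Npc2 (0.567), Ctss (0.528), Laptm5 (0.448), Ctsz (0.410), Ctsd (0.329), Lgmn (0.309), Tpp1 (0.236) and Lamp1 (0.184). It was lower in thalamus for Arsa (-0.373), Mcoln1 (-0.303) and Smpd1 (-0.254).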

How the results depend on the processing

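The counts of members higher after TBI kept within 1.5 times of the reported ones under each alternative run, at 20 to 29 in cortex and 24 to 30 in thalamus. Leaving out 1 library gave 3671 to 5219 called loci, 25 to 27 members higher and 0 to 2 lower in cortex, and 4522 to 5442 loci, 25 to 29 members higher and 3 to 4 lower in thalamus. For the difference between regions it gave 813 to 1329 loci, 6 to 11 members higher and 2 to 4 lower, and for sham thalamus against sham cortex 9333 to 9670 loci, 32 to 34 members higher and 1 to 2 lower. The single lower member in cortex, Ppt1, was lost (0 lower) under TMM scaling, upper quartile scaling, edgeR, no filter on low values and a threshold of 0.01. That threshold left 2436 called loci in cortex, 3429 in thalamus and 404 for the difference between regions, with 1 member higher and 1 lower in the last, and 1 member lower between sham regions. With the rat as a replicate block, which uses the pairing of the 2 libraries of an animal, 9 members were higher and 3 lower for the difference between regions, and 34 were higher and 1 lower in sham thalamus against sham cortex.

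Signs turned for values near 0, and the cause was not tested. In thalamus Ppt1 became 0.037 under TMM, 0.028 under upper quartile scaling and 0.040 with edgeR, and Gm2a 0.044, 0.034 and 0.051. Leaving out 1 library gave -0.028 to 0.14 for Psap in cortex, -0.032 to 0.0093 for Ppt1 in thalamus, -0.066 to 0.031 for Gm2a in thalamus, -0.0035 to 0.063 for Galns between sham regions and -0.062 to 0.0018 for Scarb2 between sham regions. Depth limited none of the members, all of which lay above the floor of 3 fragments in every library, and the 6 rats per group set the precision.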
